A study of Homo sapiens with 12 samples.

Results

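The clustered protocadherins are 53 genes on the long arm of chromosome 5, in 3 neighbouring groups: PCDHA with 15 members, PCDHB with 16 and PCDHG with 22. Their chromatin was described from every peak that touched chr5:140160000-140900000 (hg19) in the 5 histone mark lists. These were 299 of 457217 peaks, in 740 kb or 0.0244% of the sequence of chromosomes 1 to 22 and X, counted to the last peak. Within the locus, chr5:140160000-140395000 was taken as PCDHA, chr5:140425000-140630000 as PCDHB and chr5:140705000-140895000 as PCDHG, and the 500 kb on either side served as flanks. All libraries came from RWPE-1, a line of human prostate epithelial cells immortalised with human papillomavirus 18, grown in serum-free keratinocyte medium with pituitary extract and EGF and used at low passage. The series held 2 libraries for each of H3K4me3, H3K27ac, H3K4me1, H3K36me3 and H3K27me3, plus 1 input and 1 DNase library, 12 in all. There was no treatment, second genotype or second cell type, so the comparisons are between marks and between stretches of the genome. Each mark had 1 peak list for both replicates combined, so no value below has a replicate error and no difference was tested against one.

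Clustered protocadherins are cell-surface adhesion proteins best known from neurons, where each cell uses a small, largely random choice of them and so acquires a surface identity. Each PCDHA and PCDHG gene has its own promoter and one large variable exon, which is spliced to short constant exons at the 3′ end of its group, while PCDHB genes consist of a single large exon. Most of these promoters carry a conserved sequence element with the core CGCT, close to binding sites of CTCF, a protein that with cohesin folds the promoters onto distant enhancers. The last members of PCDHA and PCDHG, called C-type, have promoters of another kind and are often used in all cells of a tissue. Of the marks, H3K4me3 is known from promoters, H3K27ac from active promoters and enhancers, H3K4me1 from enhancers, H3K36me3 from transcribed gene bodies and H3K27me3 from silencing by Polycomb complexes. H3K36me3 and H3K27me3 seldom occupy the same nucleosomes, since H3K36 methylation hinders the enzyme that places H3K27me3.

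The promoter sequences are shown first because they are what members of a group share. RefSeq promoters (GRCh38.p14, 250 bases before each start to 50 after) were found for 47 of the 53 genes, all on the plus strand. PCDHA3, PCDHA13, PCDHB6, PCDHB11, PCDHGA12 and PCDHGC5 were not matched. CGCT stood on the gene's strand in the 250 bases before the start in 45 of 47 members (95.7%), all but PCDHA9 and PCDHB8, against 47.9% of 27305 genes. With both strands searched it was again in 45 members, against 64.3% of all genes. Where a promoter held several copies, the copy whose surroundings were most like those of its own group was taken. This choice favours likeness within a group. The longer forms below were picked after these sequences had been seen, so their counts are a description and not a test. Each sequence below holds 28 bases of the plus strand, 5′ to 3′, with CGCT in capitals. In PCDHA, 10 of 13 promoters had CGCT at the end of TGTCGCT, a run of letters found on the gene's strand in 0.663% of all promoters (both strands 1.31%).
PCDHA1: tggccacatgatgtCGCTgtacaccaca
PCDHA2: tagccacatgatgtCGCTgtccaccata
PCDHA8: aagccacatgatgtCGCTgtctaccaag
PCDHA12: cagtcacatgatgtCGCTctacactcag

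In PCDHB, 12 of 14 promoters had TGGCGCT in the same place, which was on the gene's strand in 1.63% of all promoters (both strands 3.14%). Counted at any place, as for all promoters, it was also in 3 of 20 PCDHG promoters. The bases after CGCT were also alike, as these 4 members show.
PCDHB3: cgaacgcatggtggCGCTgttgactaag
PCDHB10: aggccacacggtggCGCTgcaggctaaa
PCDHB13: aggacgcgtggtggCGCTgcaggataag
PCDHB16: agaacgcgtggtggCGCTgcaggttaag

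In PCDHG, the copy ended CGCCGCT in 10 of 20 promoters, CGTCGCT in 3 and TGTCGCT in 3. CGCCGCT was on the gene's strand in 3.59% of all promoters (both strands 6.80%), and CGTCGCT in 0.916% (both strands 1.77%).
PCDHGA1: aggactgtgggcgcCGCTgttcactaat
PCDHGA7: aggactcacagcgcCGCTgttcaccaac
PCDHGA10: aggactctgagcgcCGCTgttcacctac
PCDHGB1: caacctctgggcgcCGCTgtcgaccaaa

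PCDHAC2 and PCDHGC4, both C-type, are shown next. None of the 4 matched C-type members, PCDHAC1, PCDHAC2, PCDHGC3 and PCDHGC4, had one of these 4 longer forms at the chosen copy. PCDHB1, PCDHGB3 and PCDHGB7, which are not C-type, had none there either. The chosen copy of PCDHGC3, not printed here, ended TGCCGCT, as did that of PCDHGB3.
PCDHAC2: gagcagtccgggttCGCTgtccgccact
PCDHGC4: ctgagcccgggagcCGCTgtctgccaat
The 4 matched C-type members differed from the others in base composition over the whole 300-base window. Their G+C content was 59.0 to 66.0% (median 61.8%). The other 43 members lay between 32.3 and 51.3% (median 38.7%), so the ranges did not overlap. The median of all promoters was 58.3%. Across the 38 members with a longer form, CGCT began a median of 56.5 bases before the start, with a range from 11 (PCDHB5) to 199 (PCDHGB2). These matches describe letters and do not show that a factor was bound.

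The 5 marks divided the locus by stretch. H3K27me3 was the most abundant, with 128 peaks over 21.4% of its bases, 8.94 times the genome's 2.39%. H3K36me3 had 93 peaks over 14.7%, 4.08 times the genome's 3.60%. H3K4me3 had 28 peaks over 4.47% (2.93 times the genome), H3K27ac 14 peaks over 3.69% (0.993 times) and H3K4me1 36 peaks over 5.25% (0.870 times). The locus was compared with 4089 windows of the same length laid end to end over the rest of the genome. Of these, 1.08% held at least as many H3K27me3 bases, 5.36% at least as many H3K4me3 bases and 6.36% at least as many H3K36me3 bases. The shares were 35.9% for H3K27ac and 39.1% for H3K4me1, so for these 2 marks many windows held as much as the locus.

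**Figure D1:**
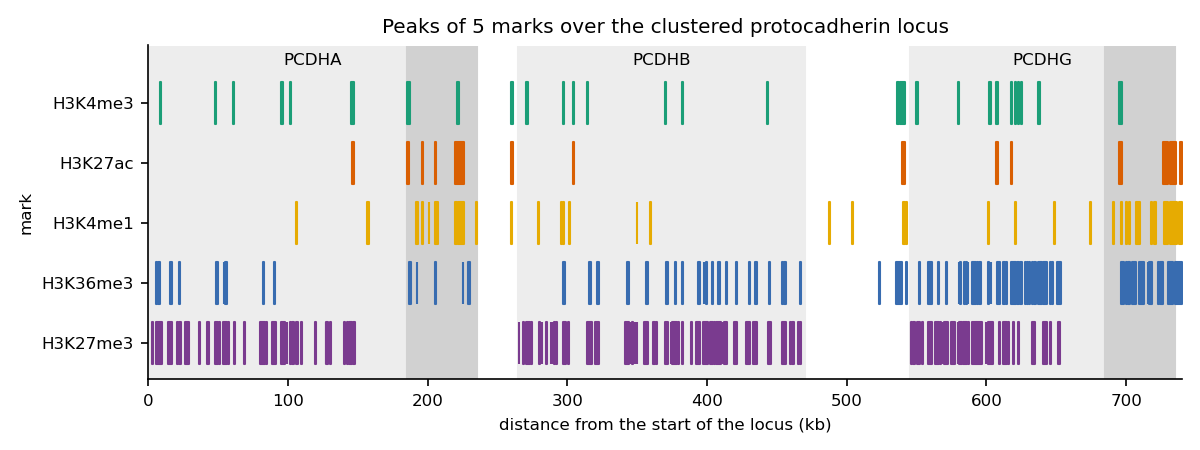
Peaks of 5 histone marks (rows) along the clustered protocadherin locus, as distance in kb from its start; each block is 1 peak of the list of combined replicates. Light grey marks the 3 groups of genes, and dark grey the last 50 kb of PCDHA and PCDHG. H3K27me3 peaks are spread through PCDHB and the earlier parts of PCDHA and PCDHG. H3K27ac and H3K4me1 gather towards the ends of PCDHA and PCDHG.

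The surroundings of the locus looked different. H3K27me3 covered 1.30% of the 500 kb before it and 4.88% of the 500 kb after it, so the locus had 6.91 times the share of its flanks (4.39 times with flanks of 250 kb and 4.43 times with 1000 kb). H3K4me1 covered 24.5% and 22.4% of the flanks and H3K27ac 11.6% and 14.3%, which left the locus with 0.224 and 0.285 times their share. H3K36me3 covered 23.9% and 24.4% of the flanks and H3K4me3 7.23% and 4.93%, so the locus, though above the genome in both marks, had 0.608 and 0.735 times the share of its flanks. With flanks of 1000 kb these ratios were 1.04 and 1.02, on the other side of 1. The longest H3K27me3 region of the flanks, after joining peaks up to 5 kb apart, spanned 11.1 kb (chr5:141123527-141134647) against 77.7 kb inside the locus. The longest before the locus spanned 7.85 kb (chr5:140125308-140133155). The longest H3K36me3 region on that side, chr5:140021542-140086092, spanned 64.6 kb, and the longest after the locus was the 80.2 kb region that begins in PCDHG. The widest H3K4me3 peak was 4257 bases before the locus (chr5:139779335-139783591) and 4381 bases after it (chr5:141254670-141259050), against 3660 within. In the RefSeq gene order, ZMAT2 precedes PCDHA1, SLC25A2 and TAF7 stand between PCDHB15 and PCDHGA1, and DIAPH1 follows PCDHGC5. H3K27me3 had no peak in the stretch of 30 kb between PCDHA and PCDHB nor in the 75 kb between PCDHB and PCDHG. In the rest of the genome the median window of 190 kb had 0 kb under H3K27me3, so empty stretches of these lengths are common.

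**Figure D2:**
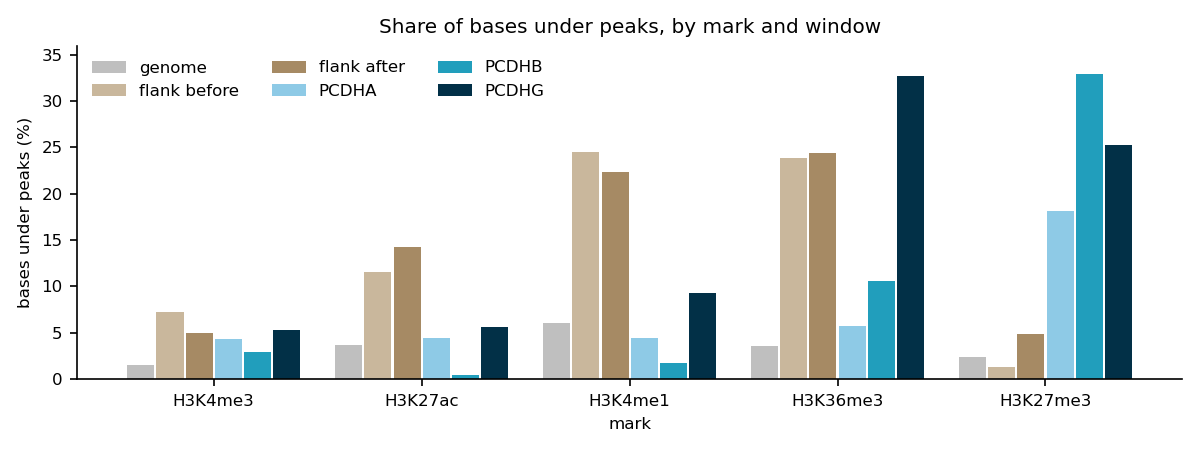
Bars give the share of bases under peaks (%) for each mark in the whole genome, the 500 kb before and after the locus and the 3 groups; each bar comes from 1 combined list and has no error. PCDHB has the highest H3K27me3 bar (32.9%) and the lowest of the 3 groups for the other marks except H3K36me3, which is highest in PCDHG (32.7%).

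The 3 groups differed in their marks. In PCDHB, H3K27me3 covered 32.9% of bases with 56 peaks, 13.8 times the genome's share, and 0.798% of 14791 windows of that length held as much. PCDHB also had the lowest share of bases under H3K27ac (1 peak, 0.426%), H3K4me1 (6 peaks, 1.71%) and H3K4me3 (7 peaks, 2.95%). Its 21 H3K36me3 peaks covered 10.6% of bases, more than in PCDHA. PCDHA had 35 H3K27me3 peaks over 18.1% of its bases and 14 H3K36me3 peaks over 5.78%. PCDHG had 37 H3K27me3 peaks over 25.3% and 54 H3K36me3 peaks over 32.7%, the latter 9.09 times the genome's share. With 10 H3K4me3 peaks (5.35%), 5 H3K27ac peaks (5.66%) and 14 H3K4me1 peaks (9.32%), PCDHG had the highest share of the 3 groups for each of these marks. For H3K4me3 this order changed with peaks of score 100 or more. PCDHA then had 3.059 times the genome's share and PCDHG 2.445 times. These counts follow the peak caller, which splits broad marks into short peaks.

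PCDHA and PCDHG were then read from the variable exons to the 3′ end. The last 50 kb of each window was taken as the 3′ part, which by general knowledge of the locus holds the constant exons and at least the last C-type exon. It was not checked against an hg19 annotation. In PCDHA, H3K27me3 covered 23% of the variable part and had no peak in the 3′ part. H3K27ac covered 0.960% of the variable part and 17.4% of the 3′ part, and H3K4me1 0.941% and 17.3%. In PCDHG, H3K27me3 covered 34.3% of the variable part and again had no peak in the 3′ part. H3K27ac covered 1.42% there and 17.5% in the 3′ part, and H3K4me1 1.87% and 30.2%. Thus both groups had the same division, with H3K27me3 over the variable part and H3K27ac and H3K4me1 mostly at the 3′ end. The flanks held both marks as well, with H3K27ac over 11.6% and 14.3% and H3K4me1 over 24.5% and 22.4% of bases. Against them, H3K27ac was higher in both 3′ parts, while H3K4me1 was higher in that of PCDHG and lower in that of PCDHA. The median window of 190 kb in the rest of the genome had 0 kb under H3K27me3, so its absence from 50 kb is not unusual. H3K36me3 was less divided, at 5.04% and 8.52% in PCDHA and 30.4% and 39.2% in PCDHG. H3K4me3 was on either side, at 3.98% and 5.78% in PCDHA and 5.93% and 3.74% in PCDHG. Its difference changed sign with a 3′ part of 40 kb in PCDHA (-1.90 percentage points, 3′ minus variable), as did that of H3K36me3 (-0.498), and with peaks of score 100 or more in PCDHG (0.718).

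The end of H3K27me3 did not coincide with the start of the 3′ part but lay before it. The last H3K27me3 peak ended at position 140308086 in PCDHA, 86.9 kb before the end of the window, and at 140812966 in PCDHG, 82.0 kb before it. After these points PCDHA had 4 of its 5 H3K27ac peaks and 9 of its 10 H3K4me1 peaks. The widest of them was an H3K27ac peak of 5922 bases (chr5:140379735-140385656, score 3100), wider than 97.5% of H3K27ac peaks of the genome. It enclosed an H3K4me3 peak and touched an H3K4me1 peak of 3798 bases, the widest of that mark in PCDHA (chr5:140381897-140385694, score 483.6). At the end of PCDHG, 2 H3K27ac peaks of 3564 and 4250 bases stood side by side (chr5:140886641-140890204 and chr5:140891698-140895947), with H3K4me1 peaks of 3397 and 4480 bases over them. Another H3K27ac peak of 3484 bases followed across the end of the locus (chr5:140898885-140902368). The score is the peak caller's own value for a peak and ranks peaks only within 1 list. Stretches with no peak of any of the 5 marks lay between the last H3K27me3 peaks and those of the 3′ parts: 27.6 kb in PCDHA (chr5:140317671-140345314) and 20.6 kb in PCDHG (chr5:140813351-140833955). The other of the 3 longest was 24 kb between PCDHA and PCDHB (chr5:140395381-140419331).

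**Figure D3:**
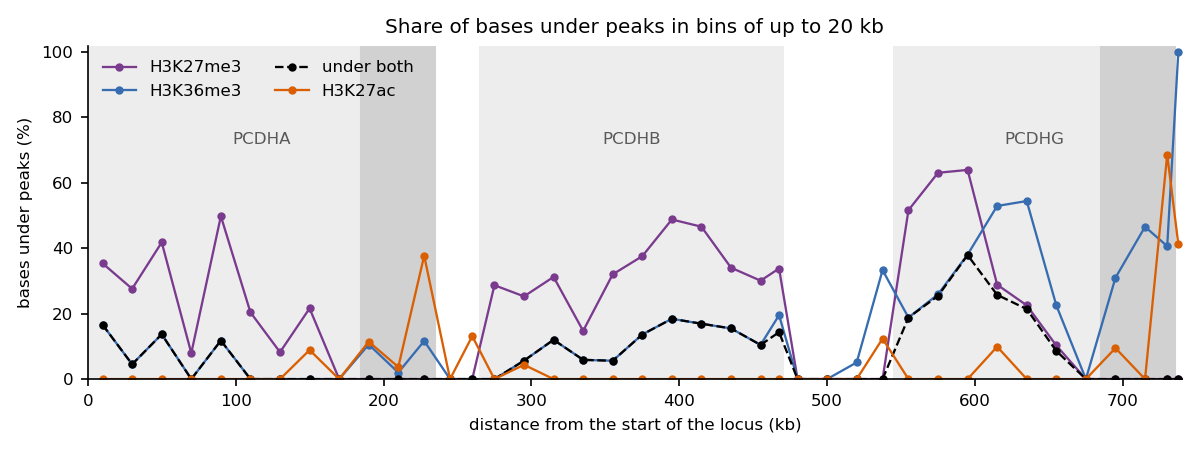
Share of bases under peaks (%) of H3K27me3, H3K36me3 and H3K27ac and under both H3K27me3 and H3K36me3, in bins of up to 20 kb against distance from the start of the locus (kb); shading as in the map of peaks. The line for both marks runs on that of H3K36me3 through the variable part of PCDHA and nearly all of PCDHB, and in PCDHG until H3K27me3 declines.

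H3K36me3 and H3K27me3 peaks lay partly on the same bases in all 3 groups. They shared 58.4 kb, which was 53.9% of the H3K36me3 bases and 36.9% of the H3K27me3 bases of the locus. In the genome as a whole, 0.357% of H3K36me3 bases were also under H3K27me3, and 0.537% the other way round. The locus held 15.0% of the 389.4 kb shared in the genome. None of the other 4089 windows of the same length held as much, the next being 33.7 kb at chr9:115440157-116180157. At the length of each single group, however, 1 other window held more than the group, each time on chromosome 9. It held 33.7 kb against 9.32 kb for PCDHA, 27.55 kb against 21.5 kb for PCDHB and 33.7 kb against 27.6 kb for PCDHG. Of the 93 H3K36me3 peaks of the locus, 61 touched an H3K27me3 peak (65.6%, 95% Wilson interval 55.5 to 74.5%), against 0.470% of all H3K36me3 peaks. Of the 128 H3K27me3 peaks, 49 touched H3K36me3 (38.3%, 30.3 to 46.9%), against 0.651% of all. In the flanks, 0 of 83 and 0 of 95 H3K36me3 peaks touched H3K27me3, which allows shares of up to 4.42% and 3.89% by the same interval. The intervals take each peak as an independent count and hold no other error. Peak lists do not show whether both marks lay on the same nucleosomes or in the same cells, and this was not tested.

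The groups differed in how much H3K36me3 stood outside H3K27me3. In PCDHB all 21 H3K36me3 peaks touched H3K27me3, and 98.8% of their bases (21.5 kb) were shared. The 3 highest of them had scores of 303.2, 260.0 and 202.8, and the widest was chr5:140594562-140596013 (1452 bases). In PCDHA, 9 of 14 did: all 9 in the variable part, with every base shared (9.32 kb), and none of the 5 in the 3′ part. In PCDHG, 31 of 54 did, with 27.6 kb shared, which was 64.8% of the H3K36me3 bases of its variable part and none of those of its 3′ part. Along PCDHG in steps of 20 kb, H3K27me3 covered 51.7, 63.1, 64, 28.9, 22.6 and 10.3% of the first 6 bins and none of the rest. H3K36me3 covered 18.8, 25.9, 38.1, 52.9, 54.4 and 22.5% of the same bins, so the first mark thinned out where the second was densest. The seventh bin held neither, and H3K36me3 then covered 31.0 to 46.6% of the last 3 bins. Its highest peak in PCDHG was there (chr5:140864012-140867397, score 1484), as was the widest (chr5:140869091-140872514, 3424 bases). The highest H3K36me3 peak of the locus lay between PCDHB and PCDHG (chr5:140695342-140699728, 4387 bases, score 2831), reaching into the strongest H3K4me3 peak. In PCDHA the widest and highest H3K36me3 peak was chr5:140346752-140348341 (1590 bases, score 345.3), in the 3′ part, touching an H3K4me3 peak. H3K36me3 peaks that touched H3K27me3 had a median score of 127.8 (51.3 to 515.0), and those that did not 150.6 (50.2 to 2831), so the shared peaks were within the range of the others.

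Many of the shared bases lay in a repeated unit. H3K27me3 peaks of the locus fell into narrow ones, up to 1643 bases, and wide ones, from 2087 bases, with none between. The 28 peaks of 2 kb or more were 21.9% of the 128, against 7.92% of all H3K27me3 peaks, and held 49.8% of the H3K27me3 bases of the locus. Their widths had a mean of 2815 ± 297 bases (SD over 28 peaks), a median of 2821 and a maximum of 3682, while wide peaks in the genome had a mean of 3789 ± 2378 (SD over 6201 peaks). There were 6 in PCDHA, 14 in PCDHB and 8 in PCDHG, where 15, 16 and 22 genes are listed, and no peak was assigned to a gene. The highest H3K27me3 peaks of all 3 groups were among them: chr5:140240080-140243761 in PCDHA (3682 bases, score 1742), chr5:140561774-140564629 in PCDHB (2856 bases, score 1460) and chr5:140718179-140721071 in PCDHG (2893 bases, score 2152). The next highest scores were 975.0 and 962.3 in PCDHA, 1422 and 1375 in PCDHB and 1791 and 1438 in PCDHG, all of wide peaks that touched H3K36me3. The wide peaks had a median score of 940.4 (285.9 to 2152) and the 100 narrow ones 106.2 (50.6 to 649.3). The median distance from the start of one wide peak to the next was 14.8 kb in PCDHA, 15.0 kb in PCDHB and 6.04 kb in PCDHG. The spacing was uneven, so these medians do not describe a regular period. In PCDHB, neighbouring wide peaks began at 140430147 and 140456685, but others at 140557082 and 140561774. The width of 2 kb was chosen after the widths had been seen.

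Of the 28 wide peaks, 26 touched H3K36me3, against 2.64% of 6201 wide peaks in the genome. The exceptions were chr5:140254917-140257565 in PCDHA and chr5:140430147-140433281 in PCDHB, and both touched H3K4me3. Of the 100 narrow peaks, 23 touched H3K36me3, against 0.480% of narrow peaks in the genome, so the narrow peaks of the locus were also above their background. A total of 7 of the 28 touched H3K4me3, against 34.5% of wide peaks in the genome, and 0 touched H3K27ac, against 7.58% of wide peaks in the genome, so the 0 is near a low background and is not a result about these peaks. Taken over all wide peaks, H3K4me3 and H3K36me3 lay at different places along the unit. It was read by increasing position, which is the direction of transcription of the 47 members matched in GRCh38. Most wide peaks did not hold both marks, since only 7 touched H3K4me3 and the exceptions above were among these. The order is therefore not shown for each wide peak. H3K36me3 lay towards the far end: its 36 peaks had their centres at a median of 69.4% of the way along (quartiles 35.5 and 74.3%), 24 of 36 were past the middle and 35 of 36 lay wholly inside. In PCDHB the median was 74.2% with 12 of 15 past the middle, in PCDHA 68.8% with 5 of 7, and in PCDHG 50.7% with 7 of 14. H3K4me3 lay at the near end, with centres at a median of 19.1% and 0 of 7 past the middle. Only 4 of these 7 lay wholly inside, and both in PCDHG began before the wide peak. Counted from the start of the wide peak, H3K36me3 covered 24.2% of bases in the first kb, 51.5% in the second and 56.1% from 2 to 3 kb, then 5.66% from 3 to 6 kb. H3K4me3 covered 18.0% of the first kb and 3.63% of the second. H3K27me3 itself covered 78.2% of the bases from 2 to 3 kb and 30.04% from 3 to 6 kb. H3K36me3 peaks ended before the wide peak did, by a median of 0.157 kb in PCDHB, 0.355 kb in PCDHA and 0.797 kb in PCDHG. No source used here says whether reads matching several of these similar exons were kept, and the part of such reads in this pattern was not tested.

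**Figure D4:**
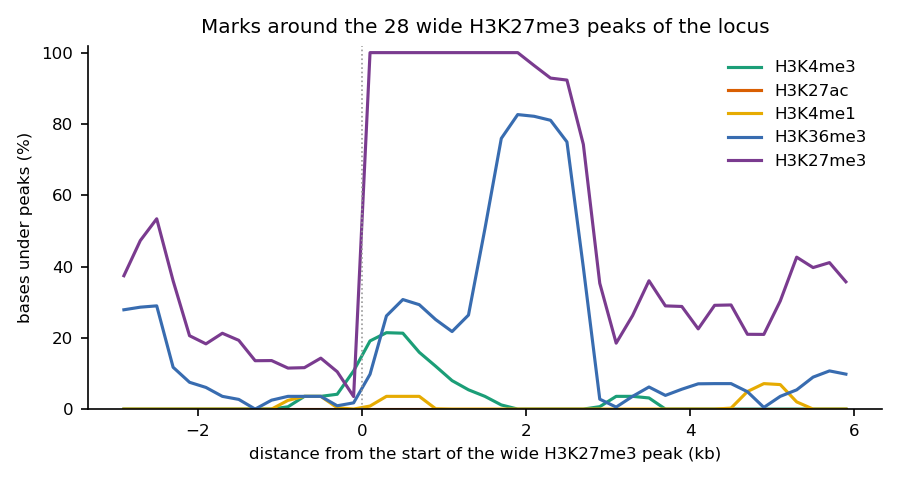
Share of bases under peaks (%) of each mark around the 28 H3K27me3 peaks of 2 kb or more, in bins of 200 bases against distance from the start of the peak (kb), by increasing position. H3K36me3 is highest at 1.9 kb (82.6%), H3K4me3 near 0.3 kb (21.4%), and H3K27ac has no base in the window.

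H3K4me3 peaks with H3K27ac had higher scores, by their median, than those with H3K27me3 alone or with neither. Of 28, 15 touched H3K27me3 and not H3K27ac, 8 touched H3K27ac and not H3K27me3, 1 touched both and 4 neither. In all, 16 touched H3K27me3 (57.1%, 39.1 to 73.5%), against 15.0% of all H3K4me3 peaks, while 9 touched H3K27ac (32.1%, 17.9 to 50.7%), against 61.7%, and 6 touched H3K4me1 (21.4%), against 49.6%. H3K36me3 was touched by 14 (50.0%), against 14.5%, and by 9 of the 10 in PCDHG. Both H3K27me3 and H3K36me3 were touched by 5, against 0.489%. With peaks of score 100 or more, H3K27me3 no longer exceeded H3K27ac: 42.1% touched each of them, and 10.5% touched H3K4me1. Shares of the whole genome at that score were not computed. From the other side, 18 of 128 H3K27me3 peaks touched H3K4me3 (14.1%, against 5.90%) and 1 of 14 H3K27ac peaks touched H3K27me3 (7.14%, against 2.13%). The 15 with H3K27me3 alone had scores from 50.2 to 379.0 (median 127.8) and the 9 with H3K27ac from 254.6 to 3100 (median 985.1), so the ranges overlapped between 254.6 and 379.0. The 4 with neither had scores from 72.2 to 135.8 (median 88.9). Widths were 350 to 1564 bases (median 916) and 869 to 3660 (median 1535).

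In PCDHA, the first 5 H3K4me3 peaks touched H3K27me3 alone, with scores in order of position of 127.8, 82.0, 379.0, 163.3 and 318.5, and the highest was chr5:140220469-140221640 (score 379.0). The sixth, chr5:140305276-140307469 (2194 bases, score 1377), was the one peak of the locus that touched both H3K27ac and H3K27me3, and it stood among the last H3K27me3 peaks of the group. The remaining 2 touched H3K27ac: chr5:140345403-140347181 (1779 bases, score 1642) and chr5:140380942-140382054 (1113 bases, score 782.4). Scores of H3K4me3 in PCDHA were therefore at most 379.0 before the last H3K27me3 peaks and at least 782.4 from there on. In the RefSeq order PCDHAC1 and PCDHAC2 are the last 2 members of the group, but no peak was matched to them. Of the 5 H3K27ac peaks of PCDHA, 3 lay on these 3 H3K4me3 peaks, and the other 2, of 668 and 473 bases, lay between them without H3K4me3.

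In PCDHB, 6 of 7 H3K4me3 peaks touched H3K27me3, with scores in order of position of 266.0, 95.9, 55.8, 121.2, 50.2 and 169.7. The seventh, chr5:140464083-140464951 (869 bases, score 254.6), carried the only H3K27ac peak of PCDHB (chr5:140464008-140464881, score 226.7). The group thus had a single place with H3K27ac, near its beginning. In PCDHG, 4 of 10 touched H3K27me3, 3 H3K27ac and 3 neither. Those with H3K27me3 had scores of 74.3, 361.8, 198.4 and 50.5, and those with neither 86.5, 72.2 and 91.2. The 9 in the variable part had scores of 50.5 to 361.8. Among them, chr5:140767010-140768115 (score 313.5) and chr5:140777391-140778367 (score 277.4) carried H3K27ac and lay in the fourth 20 kb, where H3K27me3 was already thinner. The tenth, chr5:140855235-140857102 (1868 bases, score 1516), stood in the 3′ part with H3K27ac, H3K4me1 and H3K36me3. Between the groups, the highest H3K4me3 peak of the locus was chr5:140697801-140701460 (3660 bases, score 3100), ahead of PCDHG. Another, chr5:140419464-140420998 (score 985.1), stood ahead of PCDHB, and both touched H3K27ac and H3K4me1. In the RefSeq order SLC25A2 and TAF7 also stand between PCDHB and PCDHG, and neither peak was matched to a gene.

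**Figure D5:**
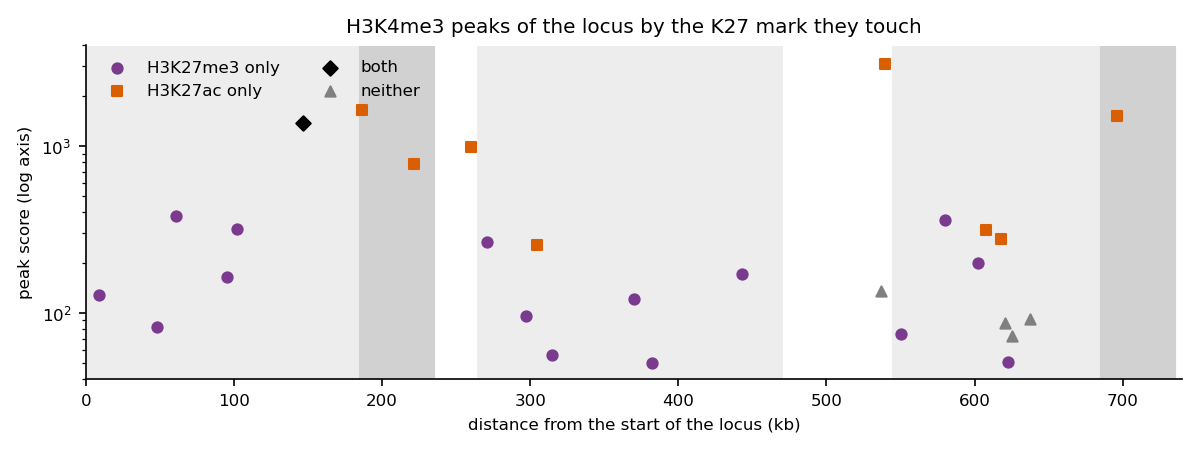
Score of each of the 28 H3K4me3 peaks (log axis) against its distance from the start of the locus (kb), by whether it touched H3K27me3, H3K27ac, both or neither; shading as in the map of peaks. Peaks with H3K27me3 alone stay at or below 379.0, and the 6 highest peaks all touch H3K27ac.

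H3K4me1 was sparse outside the 3′ parts. Its 6 peaks in PCDHB were 434 to 728 bases wide, the highest having a score of 106.4 (chr5:140519371-140519831), and 10 of the 14 peaks of PCDHG were in the 3′ part. The highest H3K4me1 peak of the variable part of PCDHA, chr5:140316544-140317670 (1127 bases, score 257.7), lay after the last H3K27me3 peak and touched no other mark. Joined over gaps of up to 5 kb, H3K27me3 formed 20 regions in the locus, the longest chr5:140705651-140783318 over the first part of PCDHG (31 peaks, 41.5 kb covered), which ranked 94 of 25989 joined regions by covered length. H3K36me3 formed 27, the longest within the groups chr5:140761320-140813350 (24 peaks, 52.0 kb span). The longer chr5:140856496-140936695 (35 peaks) began in the 3′ part of PCDHG and ran on past the locus. The longest H3K27me3 region of PCDHG and the H3K36me3 region before its 3′ part overlapped from 140761320 to 140783318.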

How the data were processed

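The study measured 5 histone marks by ChIP-seq in RWPE-1 cells. Base calling with CASAVA 1.8.2, alignment to hg19 with Bowtie2 and peak calling with MACS 1.4 are named in the submitters' processing notes without settings. Both replicates of a mark share 1 deposited peak list, and nothing says whether replicates came from separate cultures. The authors' deposited lists give a position and a score per peak (50.0 or more). Depth is not given in the lists, and neither the DNase nor the input library was used here.

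Chromosomes 1 to 22 and X were used (3035 Mb, to the last peak), which left out 179 to 555 peaks per list. Positions are counted from 1. Peaks touched when they shared 1 base or more. Shares have 95% Wilson intervals (scipy 1.17.1). The interval code was tested on simulated lists, with 0 mismatches in 1723 checks. No hg19 annotation was used, so no peak was assigned to a gene. The planned check of cell type markers and the planned lists of other genes were for that reason not run. Members, windows and lists were chosen with earlier results of these data known. The rule for regions took every H3K4me3 and H3K27ac peak of a group, the 3 widest and 3 highest peaks of the other marks per group, the longest joined regions and the 3 longest empty stretches, and those without a printed position are given by score, count or range. The 7-letter motif forms, the width of 2 kb and the 20 kb bins were set after the values were seen.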

Additional observations from a re-analysis of the deposited data

How the results depend on the processing

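No paired analysis was possible because each mark has 1 list for both replicates combined, and for the same reason no replicate could be left out. A recomputed value was counted as moved when it differed from the value given by more than 1.5 times or, for a share of peaks, lay outside its Wilson interval. Of 141 recomputed values for 56 results, 111 were within these limits, 24 moved and 6 changed direction. With peaks of score 100 or more, peaks numbered 3 for H3K27ac, 4 for H3K4me1, 6 for H3K36me3 and 21 for H3K27me3 in PCDHA, 4 for H3K4me3, 1 for H3K4me1 and 34 for H3K27me3 in PCDHB, and 5 for H3K4me3, 7 for H3K4me1 and 35 for H3K36me3 in PCDHG. At that score, the H3K4me1 share of PCDHB was 0.0562 times the genome's, and 31.6% of H3K4me3 peaks of the locus touched H3K36me3. With flanks of 1000 kb, the locus over flank ratio was 1.02 for H3K4me3 and 1.04 for H3K36me3, against 0.735 and 0.608 with 500 kb and 0.587 and 0.492 with 250 kb. For H3K27me3 it was 4.43 with 1000 kb and 4.39 with 250 kb, against 6.91. The 3′ minus variable difference, in percentage points, was -0.745 (last 30 kb) and -1.90 (last 40 kb) for H3K4me3 in PCDHA, 1.58 and -0.498 for H3K36me3 there, -6.35 and -0.861 for H3K4me3 in PCDHG, and 14.1 and 20.6 for H3K36me3 there. With peaks of score 100 or more it was 10.3 for H3K4me1 in PCDHA and 0.718 for H3K4me3 in PCDHG. Joining over 1 kb gave 75 H3K27me3 and 58 H3K36me3 regions, and over 10 kb 6 and 15. The cause of these changes was not tested, beyond the smaller number of peaks at the higher score. Placing peaks by midpoint, other backgrounds and an overlap of 50% changed some values within the limits, such as H3K4me3 peaks touching H3K36me3 (35.7% at that overlap, from 50.0%) and H3K27me3 in PCDHA (5.86 times the rest of chromosome 5, from 7.57 times the genome). Alternatives added after seeing the data, with the score limit for the shared bases and with 1500 or 2500 bases as wide, stayed within the limits.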
